A study of Homo sapiens with 12 samples.

Results

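Unannotated pairs of annotated splice sites are introns whose 5′ and 3′ splice sites are both known to the annotation but which no annotated transcript joins to each other. The authors' deposited splicing table gives each listed intron a class, and the 2022 introns of the class for such pairs were taken as they stood, out of 15980 listed introns (12.7%). They lay in 1278 of 2994 intron clusters (42.7%) and under 1171 of 2410 gene names (48.6%). The other classes were annotated introns (7159), introns with 1 unannotated 5′ site (3023) or 1 unannotated 3′ site (2633), introns with neither site annotated (735) and introns of unknown strand (408). The class itself rests on annotation, but every listed intron comes from a cluster that was called changed.

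The cells were WA01 human embryonic stem cells, turned into cortical neurons by induced over-expression of the transcription factor NGN2, which both groups carried. The control group received a scrambled shRNA and is labelled wild type, and the other group received an shRNA against TDP-43, both for 7 days. RNA-seq was made from 3 libraries per group, and 3′ end-seq, which reads the ends of polyadenylated RNA, from another 3 per group. All libraries came from 1 cell line, and the labels do not say whether the libraries of a group were separate cultures, so the p-values may measure technical spread only. The table lists only clusters that the authors called changed, at adjusted p up to 0.05, with 1 value per comparison and none per library, so neither the spread between replicates nor the depth is known. Neuronal identity was not checked against marker expression, because the columns of the gene table could not be tied to samples. For the same reason the level of TDP-43 RNA was not examined, so the depth of the knockdown is not known here.

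TDP-43 is a nuclear RNA-binding protein that binds UG-rich stretches of introns and keeps the splicing machinery from using nearby sequence as exons. It is lost from the nucleus of affected neurons in amyotrophic lateral sclerosis and frontotemporal dementia, and its loss is best known for cryptic exons, whose splice sites are absent from the annotation. A member of the class needs no new splice site: the usual way to make one is to skip an annotated exon, and another is to join an exon of one gene to an exon of its neighbour. LeafCutter, the method named on the table, counts reads across junctions and groups introns that share a splice site into a cluster.

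The value given for an intron is the change of its share of the cluster's junction reads, printed here in percentage points. The shares of a cluster sum to a constant, so a rise of one intron requires falls of others. The adjusted p belongs to the cluster, and single introns have none; rising and falling below describe the sign of the deposited change and not a test of that intron. Which group was subtracted is not given there. A positive value was taken to mean a higher share in the knockdown because the junction of STMN2, a microtubule regulator known to gain a cryptic exon without TDP-43, stood at +44.9 points with a cluster adjusted p of 3.01e-11 in the authors' deposited table (chr8:79611214-79616822, 3′ site not annotated). The same junction is listed a second time under the opposite strand, at +54.2 points.

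The splice sites themselves could be read for members whose site lay in a window around an annotated gene start, the only stretches for which sequence was used here (RefSeq, GRCh38.p14). They are shown because the class rests on both ends being known splice sites. Such a site was found for 52 members, at 31 distinct 5′ sites and 12 distinct 3′ sites. All 31 of the 5′ sites had GT and all 12 of the 3′ sites had AG at the intron's edge, the dinucleotides that most human introns start and end with. Each 5′ site below shows 10 exon bases and 12 intron bases, each 3′ site 14 intron bases and 8 exon bases, on the strand of the gene, with the intron's GT or AG in capitals.

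GALNS 5′ site, minus strand, chr16:88856746-88856767: catggacgacGTgagtgcgggc
DNMT3A 5′ site, minus strand, chr2:25252182-25252203: ggccttatggGTaggttcctgg
NAB1 3′ site, plus strand, chr2:190659144-190659165: tttttttttggcAGgttaaacc
ZNF570 5′ site, plus strand, chr19:37469548-37469569: gcgagtggagGTtggtaccgtt
DYRK1A 3′ site, plus strand, chr21:37420285-37420306: ttttcttcacacAGtgttatag
XRN2 5′ site, plus strand, chr20:21303464-21303485: ggaagagaagGTgaggaggcgc
SPART 5′ site, minus strand, chr13:36346570-36346591: catttagaagGTcagagtgggc
UIMC1 5′ site, minus strand, chr5:177006527-177006548: cgacgccaagGTaggcctctcc
UIMC1 3′ site, minus strand, chr5:176982616-176982637: tccttttattctAGacaaaagg
ZBTB26 5′ site nearer the 3′ site, minus strand, chr9:122931425-122931446: ccccgggtctGTaagtgcggag
ZBTB26 5′ site farther from it, minus strand, chr9:122931429-122931450: cttcccccggGTctgtaagtgc
NIBAN3 3′ site, plus strand, chr19:17527255-17527276: cacccgccatccAGgtgcccct

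These sites carried members that went both ways in the authors' deposited table. The member at the site of GALNS, a lysosomal sulfatase gene, stood at +23.4 points, the ZNF570 member at +8.3, that of the nuclear exonuclease gene XRN2 at +5.6 and that of SPART at +5.3. The member at the site of DNMT3A, a DNA methyltransferase gene, stood at -16.9 points, and that of DYRK1A, a kinase gene of the Down syndrome region, at -7.0. The NAB1 3′ site served 2 members that went opposite ways, -17.2 points from one upstream exon and +4.8 from another. Both ends of 1 member could be shown in UIMC1, a DNA damage response gene, and its change was -3.3 points. The pair of ZBTB26 sites lies 4 bases apart, so that 2 members differ by those bases alone, at +3.6 and +2.1 points. Those last 2 members and the NIBAN3 member (+3.8 points) end in a neighbouring gene, a kind described further on.

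Across all 2022 members, 1152 were higher in the knockdown, 730 were lower and 140 had a change of 0. Thus 57.0% of members were rising, where 47.9% of all 15980 listed introns were rising and 47.6% falling. Among introns with a nonzero change, 61.2% of members were rising, beside 50.1% of all listed introns. The changes were small for the most part: the median was 0.2 points (range -37.0 to 37.0) and the median size 0.9 points, beside a median of 0 and a median size of 1.6 points over all listed introns. Past 10 points, 93 members were higher and 30 lower, or 123 of 2022, where 5.39% of all listed introns were higher and 5.32% lower by that much. In bulk RNA, a share carried by fewer cells and a smaller share in each cell cannot be told apart.

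**Figure D1:**
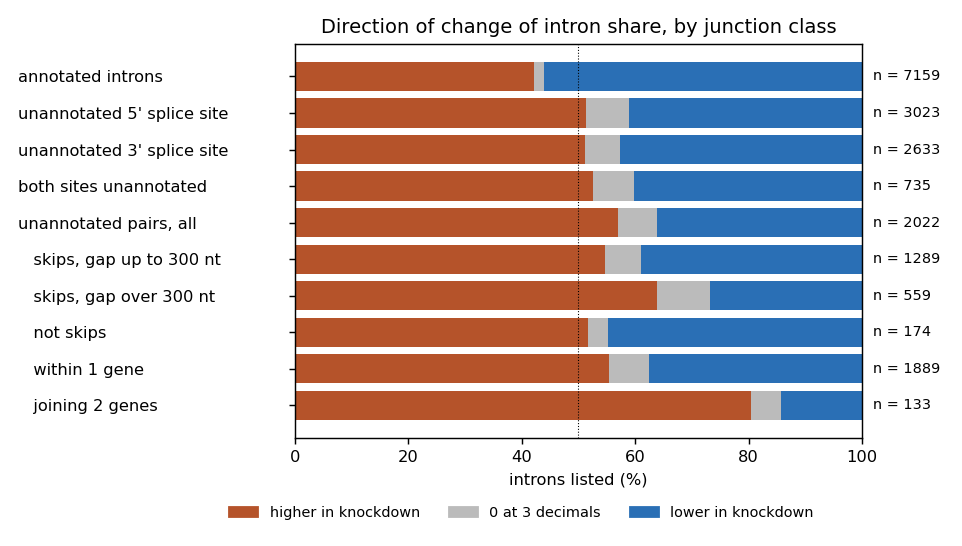
Stacked bars give the percent of listed introns that were higher (orange), unchanged (grey) or lower (blue) in the knockdown, for classes of the authors' table (top 4 bars), for all unannotated pairs and for kinds of them (indented), with the number of introns at the right and a dotted line at 50%. The higher part is 57.0% for all unannotated pairs, 42.2% for annotated introns and 80.5% for pairs joining 2 genes.

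The plot of direction by class sets the members beside the other classes, whose introns come from the same clusters and whose shares depend on each other. Annotated introns leaned the other way, with 42.9% rising and a median of -0.5 points. Introns with an unannotated 5′ site were rising in 55.6% of cases, those with an unannotated 3′ site in 54.5%, and those with neither site annotated in 56.7%. The exact binomial 95% interval of the members' 61.2% ran from 59.0 to 63.4%. It covers counting error over introns only, which are not independent and are no replicates of the knockdown, and no test between classes was made.

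Where members occurred, they were usually alone or in pairs. Of the 1278 clusters, 852 held 1 member and 426 held more, up to 8. EPB41L1, a gene of the membrane skeleton, had the most members of any gene name, 11, with changes from -3.5 to 2.7 points. A member had the largest rise of its cluster in 394 of the 1278 clusters and the largest fall in 175. How often introns of the other classes led a cluster was not counted, so these counts have no background. Clusters with a member had a median adjusted p of 0.0084 and a median of 6 introns. The 1716 clusters without one had 0.0126 and 3 introns. An unannotated splice site was listed beside the member in 779 clusters (61.0%), compared with 1380 of the clusters without a member (80.4%). Members in clusters without any unannotated site numbered 673 and were rising in 64.5% of nonzero cases. The 1349 members that shared a cluster with an unannotated site were rising in 59.4%.

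Most members passed over sequence that lies between annotated introns of the same cluster. In 1848 of the 2022, an annotated intron started where the member started, another ended where the member ended, and a gap was left between them. These are called skips here, and the change of the 2 annotated introns beside the gap was read with each. Within 1 gene it describes how inclusion moved. Where the ends lie in 2 genes it does not, since the flanking introns then belong to different genes. The gap was at most 300 nt, the size of a usual exon, in 1289 members, and longer in 559, where it can hold several exons with their introns. Another 101 members met this condition at 1 end only, and 73 at neither. Skips were higher in the knockdown in 1062 cases and lower in 652, with 88 and 27 past 10 points. The remaining 174 members split into 90 higher and 78 lower.

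The largest rises were skips of a short exon in genes of varied function. ASAH2B, a ceramidase-related gene, had the largest at +37.0 points (cluster adjusted p 0.00272, chr10:50743010-50749343, gap 73 nt), with changes of -15.1 and -21.9 points in the annotated introns upstream and downstream of the gap. It has a close copy, ASAH2, so its reads may be shared and the value is uncertain. CRAMP1, a chromatin-associated gene, had +37.0 points for a gap of 105 nt (adjusted p 0.00314, chr16:1665138-1666422), beside -25.0 and -12.0. CARMIL2, a regulator of actin capping, had +36.8 for a gap of 81 nt (5.04e-04, chr16:67656645-67657239), beside -15.9 and -18.4. DAGLA makes the endocannabinoid 2-arachidonoylglycerol from diacylglycerol. Its member stood at +36.1 points for a gap of 84 nt (5.84e-05, chr11:61735002-61735739), beside -19.8 and -16.3. In each of these genes the skip and the inclusion introns went opposite ways in the authors' deposited table.

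AGPAT4, a phospholipid acyltransferase gene, followed at +34.3 points with a gap of 162 nt and a cluster adjusted p of 0.0388. RBCK1, which belongs to the linear ubiquitin ligase complex, stood at +31.4 with a gap of 161 nt (7.47e-04), where nearly all of the fall was upstream, -26.7 points, and -4.8 was downstream. GMIP, a GTPase-activating gene, stood at +30.2 (3.61e-05, gap 197 nt) and WIPI1, an autophagy gene that binds phosphoinositides, at +23.5 (0.00691, gap 83 nt). Longer gaps in this range were found in HDAC10, described below with the gene-spanning members, TYK2, a Janus kinase (+32.4 points, adjusted p 0.01, gap 2595 nt), SLC27A1, a fatty acid transporter (+31.9, 0.0492, gap 773 nt), and PLEC, the cytoskeletal linker plectin (+28.8, 4.34e-04, gap 3381 nt). The adjusted p-values of SLC27A1 and AGPAT4 lay close to the table's limit of 0.05.

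**Figure D2:**
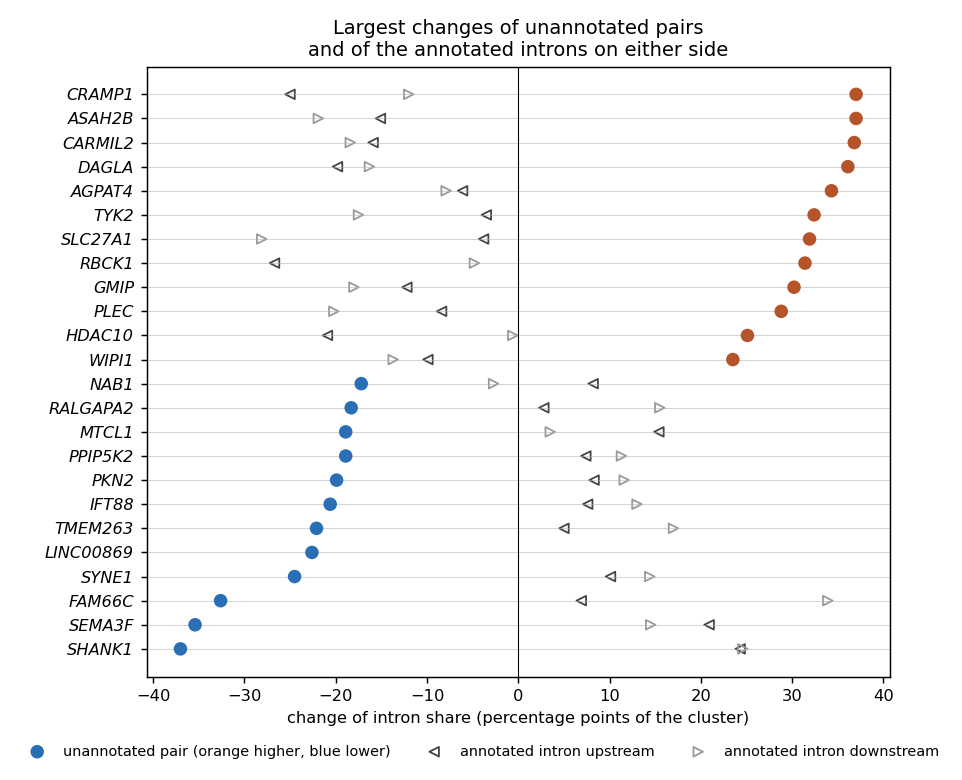
Change of intron share, in percentage points, for the 12 members with the largest rise and the 12 with the largest fall, 1 per gene, with the annotated introns upstream and downstream of the skipped gap where the member is a skip. The members run from 37.0 points in ASAH2B and CRAMP1 to -37.0 points in SHANK1, and in most genes both flanking introns lie on the other side of 0.

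Of the 12 largest falls, 11 were skips, and the annotated introns beside the gap were mostly higher. SHANK1, a scaffold of the postsynaptic density, had the largest fall at -37.0 points (adjusted p 2.48e-09, chr19:50689279-50697589). The skipped gap was a microexon of 27 nt, and its 2 flanking introns changed by +24.3 and +24.6 points. SEMA3F, a secreted axon guidance gene, stood at -35.4 for a gap of 93 nt (7.49e-05, chr3:50174350-50176768), beside +20.9 and +14.5. SYNE1, which encodes the nuclear envelope protein nesprin-1, stood at -24.5 for 51 nt (2.47e-04), beside +10.1 and +14.4. IFT88, needed for transport within cilia, stood at -20.6 for 111 nt (1.88e-04), beside +7.6 and +13.0. These were the reverse of the DAGLA pattern, in the authors' deposited table.

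Among the other members with the largest falls, TMEM263 stood at -22.1 points (9.53e-06, gap 68 nt), the protein kinase gene PKN2 at -19.9 (1.6e-04, gap 144 nt) and PPIP5K2, an inositol pyrophosphate kinase, at -18.9 (1.39e-05, gap 174 nt). MTCL1, a microtubule crosslinker, stood at -18.9 with an adjusted p of 0.0385. RALGAPA2, a subunit of the Ral GTPase-activating complex, stood at -18.3 with 0.0492. NAB1, a corepressor of EGR transcription factors whose 3′ site is printed above, was the only 1 of the 12 falls with a longer gap (6308 nt, -17.2 points, adjusted p 0.013), and its flanking introns split, +8.2 upstream and -2.7 downstream. FAM66C (-32.6) and LINC00869 (-22.6) are noncoding genes of families with near-identical copies, and their values are uncertain for that reason. The LINC00869 member had no annotated intron that met the condition for a skip at either end; the annotated intron that starts where it starts reaches beyond it and changed by +10.2 points.

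At large changes the skip and its flanking introns mostly mirrored each other. Of the 88 skips that were higher by 10 points or more, both flanking introns were lower in 73 (83.0%) and in 0 were both higher. Of the 27 that were lower by 10 points or more, both were higher in 23 (85.2%) and both lower in 1. With exon-sized gaps the counts were 63 of 70 and 22 of 25. Over skips of any size, both flanks were lower beside 478 of 1062 rising skips (45%), and both higher beside 205 of 652 falling ones (31.4%). The sets of 88, 1062 and 652 skips include some whose ends lie in different genes, where the flanking introns do not describe inclusion. Since the shares of a cluster sum to a constant, opposite signs arise partly by construction.

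The length of the gap was counted by the reading frame it would leave. An exon whose length is a multiple of 3 can be skipped without moving the reading frame, while other lengths shift it if the exon is coding. The 1236 distinct exon-sized gaps had a median length of 111 nt (interquartile range 78 to 151, range 9 to 299), and 516 (41.7%, exact 95% interval 39.0 to 44.6) were multiples of 3. Of the 684 gaps passed over by rising skips, 248 (36.3%, 32.6 to 40.0) were multiples of 3. Of the 488 passed over by falling skips, 241 were (49.4%, 44.9 to 53.9). The medians of length were the same, 111 nt in both. Past 10 points, the counts were 31 of 70 for rising skips and 16 of 25 for falling ones.

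**Figure D3:**
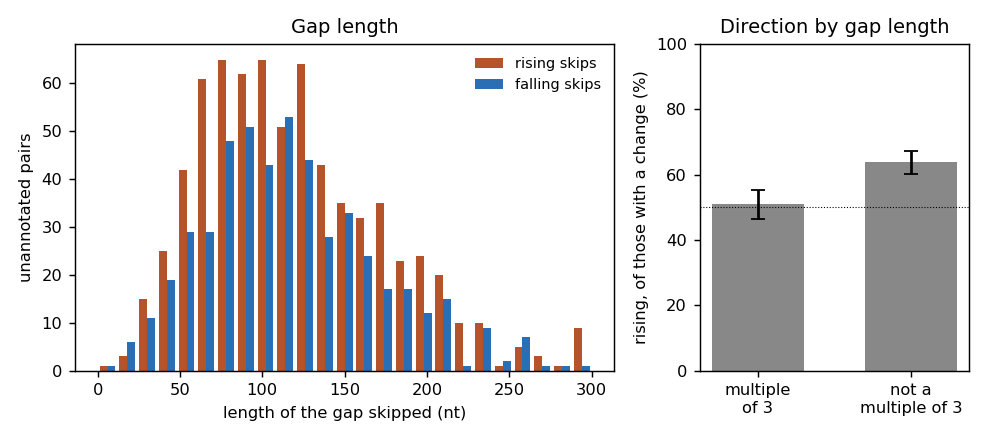
Left, histogram of the length in nt of gaps up to 300 nt passed over by rising (orange) and falling (blue) skips. Right, percent of skips with a nonzero change that were rising, by whether the gap is a multiple of 3, with 95% exact binomial intervals over introns and a dotted line at 50%. Skips of gaps that are a multiple of 3 stand at 51.0% rising and other gaps at 63.8%.

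Read the other way, skips of gaps that keep the frame went up and down about equally often, with 258 higher and 248 lower (51.0% rising, 46.5 to 55.4). Skips of gaps that would shift it were higher in 447 cases and lower in 254 (63.8%, 60.1 to 67.3). Skips of longer gaps were higher in 357 cases and lower in 150 (70.4%, 66.2 to 74.4), with a median length of 3188 nt. These intervals again cover counting error over introns only. Whether a gap is coding could not be read, since exon annotation was not used here.

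Microexons, here gaps of at most 27 nt, are common in neuronal genes and often included only in neurons. There were 24 such skips, 14 higher and 10 lower in the knockdown, and only a few were large. SHANK1 is described above. Its relative SHANK2 had a gap of 21 nt and went the other way, +15.9 points (adjusted p 1.06e-04), beside -11.1 and -4.8 in the flanking introns. MTSS1L, an actin and membrane-bending gene, had the shortest gap, 9 nt, and stood at +18.7 points (1.45e-04), beside -8.3 and -10.4. TRAPPC9, a tethering factor of vesicle transport, had a gap of 27 nt at +10 points (1.2e-08). Smaller changes were listed for the presynaptic adhesion gene NRXN2 (+3.6 points, 24 nt) and the synapse organizer AGRN (+3.9, 24 nt). By 10 points or more, 3 skips of microexons were higher and 1, that of SHANK1, was lower in the authors' deposited table.

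Some members, most of them already counted above as skips of longer gaps, joined 2 genes. For 133 members the 2 ends lay in different RefSeq genes with no gene in common, and these fell on 107 gene pairs. Genes recorded on the strand opposite to the cluster were not counted, but genes of unrecorded strand were. With only genes whose strand was recorded, 90 members met the condition. The 133 members were higher in the knockdown in 107 cases, lower in 19 and unchanged in 7. This is 84.9% rising among nonzero changes (exact 95% interval 77.5 to 90.7), beside 59.5% for the 1889 members within a gene. The median change was 1.0 point. A cluster that joins 2 genes holds junction reads of both, so its shares also depend on how much each gene is expressed. Expression was not analysed, so more joining of the genes and a change in the level of either gene cannot be told apart. Of the 133, 7 were higher by 10 points or more, a share near the 5.39% of all listed introns. By that much 0 were lower, beside 5.32% of all listed introns. Annotated introns held 0 such cases of 7159. That is close to fixed in advance, since each lies within an annotated transcript of 1 gene. The introns with an unannotated site held some as well: 52 with an unannotated 5′ site, 84.0% of them rising, and 40 with an unannotated 3′ site, 69.4% rising. Of the 14 with neither site annotated, 13 were higher and 1 lower.

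**Figure D4:**
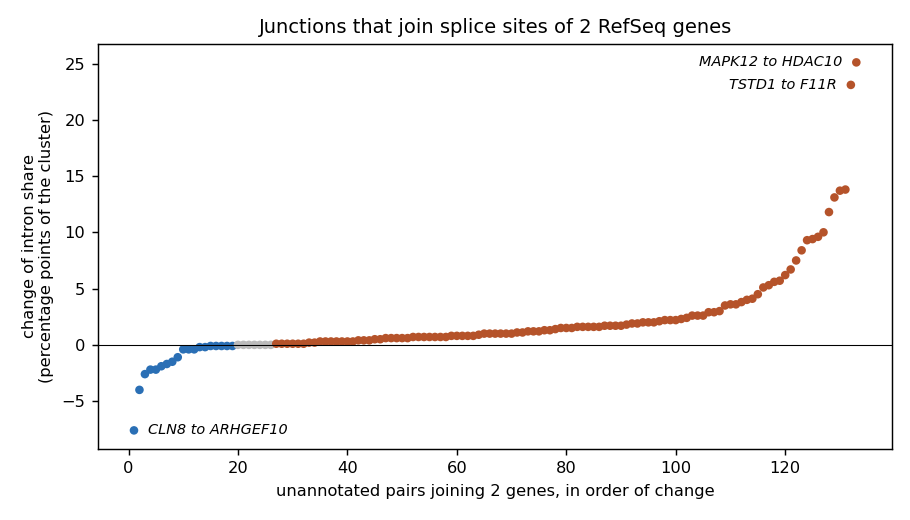
Change of intron share, in percentage points, of the 133 members whose ends lie in different genes, sorted by change, 1 point per member (orange higher, blue lower, grey 0). They run from -7.6 to 25.1 points, with 107 above 0 and 19 below.

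The highest was a junction from MAPK12, a stress-activated p38 kinase gene, to HDAC10, a deacetylase gene directly after it, at +25.1 points (adjusted p 0.00271, chr22:50250905-50255197). The annotated intron that starts at the same 5′ site changed by -20.9 points. A junction from TSTD1 to F11R, which encodes a tight junction adhesion protein, stood at +23.1 points (2.37e-09, chr1:161001353-161038880). There the annotated intron upstream changed by -0.7 points and the one downstream by +13.3. Next came ZNF783 to LOC155060 at +13.8 and ZNF529-AS1 to ZNF382 at +13.7 and +10 from 2 neighbouring 5′ sites (adjusted p 1.88e-18), while another 5′ site joined to the same 3′ site stood at -2.2. FARSA, a subunit of phenylalanyl-tRNA synthetase, was joined to the meiotic gene SYCE2 at +13.1, and OSBP2 to MORC2-AS1 at +11.8. Zinc finger genes are related in sequence, so reads across those junctions could map to more than 1 copy.

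Smaller rises in the authors' deposited table joined ZNF468 to ZNF28 (+9.6 points), TRIM3 to the hemopexin gene HPX (+9.4), BLACAT1 to LEMD1 (+9.3), CNIH2, an auxiliary subunit gene of AMPA receptors, to TMEM151A (+8.4), GPR162 to P3H3 (+7.5) and CRIP2 to its relative CRIP1 (+6.7). In CNIH2 the annotated intron upstream changed by -18.4 points, and in GPR162 by -17.8. Beside a junction from XPO7 to NPM2 (+4.1) it went the other way, at +17.8. The lowest values were CLN8 to ARHGEF10 (-7.6) and BICD2 to IPPK (-4.0). The first of these skips a gap of 63187 nt.

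Since such a junction needs RNA that runs past the end of the upstream gene, the authors' polyadenylation tables were read for the same genes. Of the 107 gene pairs, the upstream gene was listed with a longer 3′ end by 3′ end-seq in 12 and with a shorter one in 2, and by RNA-seq with distal usage in 12 and proximal usage in 0. The downstream gene was listed as longer in 16 and shorter in 5. Upstream genes held an authors' cryptic polyadenylation site in 2 pairs and downstream genes in 4. As a background, older symbols were matched as for the pairs. Of all 1171 genes with a member, 160 (13.7%) were then listed as longer by 3′ end-seq, 26 (2.22%) as shorter, and 89 (7.6%) as distal by RNA-seq. The 12 longer upstream genes of 107 pairs stand below that share, and the 12 distal ones above it. Among the downstream genes, the 16 longer and 5 shorter ones stand above their shares, and the 5 distal ones below. The pairs can count a gene more than once, as with ZNF480, and no test was made. Among the upstream genes of the pairs named above, MAPK12 and FARSA were listed as distal, ZNF783 as longer and TRIM3 as shorter.

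Members in glutamate receptor genes joined exons that annotated transcripts use in turn. In AMPA receptor genes a pair of such exons, called flip and flop, changes how fast the channel desensitizes. A member in GRIA4 joined 2 exons of 115 and 115 nt to each other, where the annotated introns reach and leave each of them separately, and its share rose by 12.5 points (adjusted p 8.6e-05, chr11:105966061-105971914). The annotated introns into and out of the first exon changed by -9.5 and -13.5 points, and those into and out of the second by +0.6 and +4.3; the member itself leaves the first exon and enters the second. GRIA2 had the same arrangement, also with exons of 115 and 115 nt, at +6.7 points (0.00174, chr4:157361124-157361538). There the second exon's annotated introns were lower, at -7.6 and -5.5 points, with +1.9 and +1.1 for the first. In the kainate receptor gene GRIK2 a like member joined exons of 87 and 132 nt and stood at -7.0 points (8.58e-05). The annotated introns into and out of the first exon changed by -0.6 and +4.0 points, and those of the second by -4.0 and -13.3. The largest change of that cluster, +20.9 points, was in an annotated intron that passes over both exons.

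Such joins of alternate exons were found 26 times among the members, of which 24 had both exons at most 300 nt long. Of these 24, 17 were higher and 6 lower in the knockdown, where 57.0% of all members and 47.9% of all listed introns were rising. The count is small, many of the changes were near 0, and no test was made. Apart from the receptors, the larger values were ERBB2IP, a scaffold gene of epithelial cells and neurons, at +7.2 points (1.73e-06), and FBXW11, an F-box gene of a ubiquitin ligase, at +4.8 (1.02e-16). GPR155 stood at -3.1 points. SNAP25, the synaptic fusion protein gene with a well-known pair of alternative exons, had such a join of exons of 118 and 118 nt at +0.1 points. The calcium-dependent kinase genes CAMK2D (+1.4) and CAMK2G (-1.7) went opposite ways.

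Gene groups were then read by counts, against 48.6% of all named genes of the table that had a member and 57.0% of all members that were rising. Among 52 genes reported as splicing targets of TDP-43, 46 were in the splicing table and 18 of these (39.1%) had members. Of their 30 members, 15 were higher (50%), 9 lower and 6 at 0. Their median was 0.05 points, beside 0.2 over all members and 0 over all listed introns. TBC1D1, a Rab GTPase-activating gene, stood at -11.1 points (adjusted p 0.00777), CNTNAP1, a paranodal adhesion gene, at +6.9 (0.0166) and the endocytic GTPase gene DNM1 at +6.6 (0.00337). The list was written from general knowledge of reported targets, with earlier results of these cells known, and is not independent evidence of direction.

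Of the synaptic genes, 24 of 41 in the table (58.5%) had members, 41 in all, 23 higher (56.1%) and 13 lower. Past 10 points were SHANK1 and, upward, SHANK2, the active zone organizer RIMS1 (+18.1 points, adjusted p 0.00483, gap 81 nt) and BIN1, a membrane-bending gene of endocytosis (+16.7, 4.18e-04, gap 108 nt). Ion channel and receptor genes had 17 members in 14 of 24 genes, 9 higher and 8 lower. Cell adhesion and axon guidance genes had 30 members in 15 of 29 genes, 16 higher and 12 lower, led by PTPRF, a receptor tyrosine phosphatase (+16.4, 0.00995), and the axonal adhesion gene L1CAM (+8.3, 2.78e-07). Each of these 3 groups held members of both signs.

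Microtubule, actin and motor genes held 34 members in 19 of 41 genes, 15 higher and 17 lower. ANK2, which anchors membrane proteins to the spectrin skeleton, stood at +13.4 points (2.38e-07, gap 99 nt) and the cytoskeletal linker DST at -11.1 (0.00103, gap 111 nt). GTPase regulators held 37 members in 17 of 31 genes, 17 higher and 17 lower. The guanine exchange factor ARHGEF11 stood at -14.9 (0.00597, gap 30 nt) and ARHGEF2, a microtubule-bound relative, at +12.6 (0.0231, gap 68 nt). Kinase and phosphatase genes held 42 members in 18 of 34 genes, 21 higher and 18 lower, with DYRK4 at +21.3 (0.0476), CDK10 at +11.7 (0.00708), PIK3C2A at -8.9 (0.00375) and the salt transport kinase gene WNK1 at -7.4 (0.0014).

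Chromatin and transcription genes held 31 members in 14 of 38 genes, 19 higher and 8 lower. KMT2C, a histone H3 methyltransferase gene, stood at +19.7 points (2.36e-05, gap 105 nt) and DNMT3A at -16.9 (2.97e-06, gap 68 nt). Trafficking, autophagy and ubiquitin genes held 26 members in 15 of 31 genes, 10 higher and 13 lower, with the O-GlcNAc transferase gene OGT at -8.9 (4.19e-05) and the autophagy gene BECN1 at +6.4 (0.00885). Splicing factors held 10 members in 7 of 34 genes (20.6%), 6 higher and 4 lower, with the U1-associated PRPF40B at +18.3 (0.00101, gap 111 nt), HNRNPH3 at -5.9 (0.0176) and MBNL2 at -3.2 (0.00973, gap 36 nt). Genes of amyotrophic lateral sclerosis and frontotemporal dementia had 5 members in 3 of 8 genes, all small: the dynactin subunit DCTN1 at -0.6, the autophagy receptor SQSTM1 at -0.6 and the RNA-binding MATR3 at +0.2 as their leading values.

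Ribosomal protein genes, of which 16 were in the splicing table, had 2 members, RPL18 at +1.0 point and RPS12 at +0.5. Neuron marker genes had 6 members in MAP2, DCX and SNAP25, with leading values of -0.9, +0.6 and +0.4 points. Of the 8 stem cell and glial markers, 1 was in the splicing table and 0 had a member. These are splicing values and say nothing of the level of any marker.

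Skips in the clusters of smallest adjusted p were often small. Among exon-sized skips, the smallest adjusted p of a rising one was 4.65e-20, in DAPK1, a calcium-regulated death kinase gene, where the member changed by +0.5 points. PRKACB, a catalytic subunit of protein kinase A, followed with 4.74e-20 and +0.4 points for a gap of 24 nt. UBE2Q2 (+0.1 points), the cannabinoid receptor gene CNR1 (+0.2) and, among falling skips, RABL6 and the glycolytic enzyme gene PKM (-0.1 each) were of the same kind. In the cluster of HSPBP1, a cochaperone gene, the falling skip changed by -0.1 points (4.75e-11), while 2 other members changed by +15.7 and +4.4. The p belongs to the cluster and not to single members. Larger members with small p were PHLDB1 (+7.3 points, 4.14e-13), the kinase gene PAK3 (+3.4, 3.01e-11) and ARHGAP22 (+15.2, 1.01e-11).

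ARHGAP22, a Rac GTPase-activating gene, had the largest change among the 5 members with a cryptic polyadenylation site inside their span. Its skip passes over 200 nt (chr10:48555550-48604763), and the annotated introns beside the gap changed by -32.4 points upstream and -10.9 downstream in the authors' deposited table. The 4 introns with unannotated sites in the cluster were higher, from +4.9 to +11.5 points. The authors' cryptic polyadenylation site at position 48574218, within an intron and inside the member's span, had a usage of 2.94% in the controls and 34.6% in the knockdown. The member, the unannotated sites and the polyadenylation site thus all gained share in the same gene.

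A cryptic polyadenylation site lay inside the span of 5 of the 2022 members (0.247%) and of 50 of all 15980 listed introns (0.313%). Among the 5 was P4HTM (+5.8 points), where usage went from 4.10 to 26.1%. Within 1000 nt after the 3′ end, a site was found for 0 members and for 16 of all listed introns (0.1%). Of the 1171 genes with a member, 33 (2.82%) were among the 423 genes with a cryptic site (7.80% of those), beside 53 (4.28%) of the 1239 other genes of the splicing table. In 3′ end-seq, 179 member genes (15.3%) were among the 2092 listed genes (8.56% of those), beside 223 (18.0%) of the other splicing genes. Most of the 179 were lengthened, 153 against 26 shortened, as were 185 against 38 of the other genes. RNA-seq polyadenylation changes were listed for 95 member genes (8.11%) and 103 others (8.31%). Within the RNA-seq table, 88 member genes were distal and 7 proximal (0.598%), beside 99 and 4 (0.323%) of the others. No test was made between these shares, and the genes that were tested but unchanged are not known. The gene counts in this paragraph use symbols as given.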

How the data were processed

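RNA-seq and 3′ end-seq libraries came from WA01-derived neurons, 3 per group and assay (12 in all), after 7 days of shRNA. Per the labels' protocols, RNA-seq used a stranded total RNA kit and 3′ end-seq a QuantSeq REV kit. Per the submitters' processing notes the build was hg38 and the tools included STAR, SAMtools, Salmon, fastp and DESeq2, with no version or role stated. LeafCutter is named on the splicing table, with no settings.

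The change of intron share is a score that the authors deposited as a fraction of the cluster; it was multiplied by 100 to give points. The p-values are the authors' deposited adjusted p-values, 1 per cluster or gene. A count of introns is deposited for each cluster. Usage of cryptic polyadenylation sites, which the authors gave as 1 fraction for each group, is printed as a percent. The depth is unknown. No label ties the 6 per-sample columns of the gene table to samples, so they were left out and the planned comparison of gene expression was not run.

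Members were all introns of the class. A skip was defined from annotated introns of the same cluster with the member's start and end that do not overlap, using the shortest gap. RefSeq genes (GRCh38.p14) gave the genes at each end, and 57 gene symbols were matched through older names, with 6 left unmatched. Genes named were the 12 largest rises and falls, 1 per gene, the 8 exon-sized skips of smallest cluster p in each direction, and up to 4 members per gene list; some that meet this rule are not reported here. Gene-spanning, microexon and alternate-exon examples, the printed sites and EPB41L1 were chosen after their values were seen. The members and lists were chosen with earlier results of these data known. No test across introns was made. Scripts (Python 3.11.15, pandas 2.3.3, NumPy 2.4.6, SciPy 1.17.1, Matplotlib 3.10.9) were tested on simulated introns. Of 1654 members whose gene strand was known, 0 lay on the opposite strand. Alternatives tried are given in the closing section.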

Additional observations from a re-analysis of the deposited data

How the results depend on the processing

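The share of members rising stayed between 61.2 and 63.2% with 1 member per cluster or gene, and with stricter cluster p-values, and was 70.9% among the 313 members with changes of 5 points or more. The count past a size was 123 at 10 points, 313 at 5 points and 29 at 20 points. Cryptic polyadenylation sites lay within 1000 nt after 0 members and within 5000 nt after 5. The share rising among skips of gaps not a multiple of 3 was 63.8%, and 70.4% with changes of 1 point or more, an alternative chosen after seeing the data. The other alternatives for gene-spanning members (84.0 to 88.5%) and for gap length were also chosen after seeing the data. No paired analysis was possible because the splicing and polyadenylation tables hold no value per library and the columns of the gene table could not be tied to samples, and no library could be left out for the same reason. Leaving out opposite-strand clusters or repeated positions removed no member and tests nothing. The expression alternatives were not run.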
